A study of Mus musculus with 4 samples.

Results

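The flavin-containing monooxygenase genes Fmo1, Fmo2, Fmo4 and Fmo5 were followed in the liver of F1 hybrids between the inbred mouse strains B6 and MSM. They were chosen by name, with earlier results of these data known. All 4 were among the 8797 genes of the tables and among the 3632 genes for which a B6-allele frequency was given in every mouse. mRNA-seq had been carried out on poly(A) RNA from the liver of 4 female mice at 5 months of age, 2 of each reciprocal cross, and each mouse was a separate animal. MSM/B6 hybrids were born to MSM mothers and sired by B6 males, and in B6/MSM hybrids the strains of the parents were exchanged. Every mouse thus carried a chromosome set of each strain. Expression was given in FPKM (fragments scaled to transcript length and to library size), and allele use as the B6-allele frequency, which is the B6-derived share of the reads that could be assigned to an allele. A frequency of 0.5 is equal use of both alleles, and lower values mean more MSM-derived reads.

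Flavin-containing monooxygenases are flavoproteins of the endoplasmic reticulum that use NADPH and molecular oxygen to add an oxygen atom to soft nucleophiles, mostly the nitrogen or sulfur of amines, thiols and sulfides. They accept many drugs, pesticides and dietary compounds and work beside the cytochromes P450, but take electrons from NADPH directly rather than from a separate reductase. The amount of each enzyme depends on tissue, sex and age, and the liver holds several of them together.

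Fmo1 (ENSMUSG00000040181.14), which encodes an enzyme of broad substrate range, lies at chr1:162829561-162866610 of mm10 on the minus strand. Fmo2 (ENSMUSG00000040170.13), whose enzyme is best known from lung, lies at chr1:162874317-162898726 on the same strand. Fmo4 (ENSMUSG00000026692.12), whose substrates are poorly known, lies at chr1:162793188-162813972, also on the minus strand. Their annotated starts follow each other in the order Fmo4, Fmo1 and Fmo2, with 52.6 kb from Fmo4 to Fmo1 and 32.1 kb from Fmo1 to Fmo2. Fmo5 (ENSMUSG00000028088.14), whose enzyme acts on ketones in Baeyer-Villiger reactions more than on classical amines, lies apart from them at chr3:97628804-97655282 on the plus strand. The longest open reading frames of their annotated transcripts were 1599 nucleotides in Fmo1, 1608 in Fmo2, 1683 in Fmo4 and 1602 in Fmo5. In pairwise alignments these frames were identical at 60.5% (Fmo1 and Fmo5) to 63.6% (Fmo2 and Fmo4) of aligned bases. The longest exact run that any pair shared was 24 bases, against sequenced reads of 150 bp.

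The promoters of 3 of the 4 genes were matched in RefSeq (GRCm38.p6), each as 250 bases before to 50 bases after the RefSeq start. They are shown because the 3 genes differ in level. The RefSeq starts, 162898758 for Fmo2, 162812549 for Fmo4 and 97629019 for Fmo5, differ from the GENCODE starts of the gene spans given above. All of the Fmo4 window and most of the Fmo5 window lie inside those spans. They were searched on both strands for the TATA box (TATAAA), the core that FOXA factors bind (TGTTTA), the CCAAT box (CCAAT), a nuclear receptor half-site (AGGTCA) and the GC box (GGGCGG). Capitals mark the matches, and a match on the other strand appears as its reverse complement. The sequences are those of the reference strain, which is B6, and the letters of the MSM allele were not analysed here.
Fmo2 promoter, chr1:162898709-162899008, minus strand: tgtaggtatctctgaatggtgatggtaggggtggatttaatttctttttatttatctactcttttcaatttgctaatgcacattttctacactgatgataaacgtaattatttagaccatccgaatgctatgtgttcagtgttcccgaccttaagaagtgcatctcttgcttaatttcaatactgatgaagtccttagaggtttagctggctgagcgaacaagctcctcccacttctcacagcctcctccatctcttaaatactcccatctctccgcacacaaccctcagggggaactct
Fmo4 promoter, chr1:162812500-162812799, minus strand: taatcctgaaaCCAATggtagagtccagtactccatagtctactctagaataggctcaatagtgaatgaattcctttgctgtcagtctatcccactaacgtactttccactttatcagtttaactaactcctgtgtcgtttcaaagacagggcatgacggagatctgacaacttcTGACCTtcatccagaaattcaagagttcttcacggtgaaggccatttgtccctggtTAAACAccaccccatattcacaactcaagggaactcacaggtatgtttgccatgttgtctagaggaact
Fmo5 promoter, chr3:97628769-97629068, plus strand: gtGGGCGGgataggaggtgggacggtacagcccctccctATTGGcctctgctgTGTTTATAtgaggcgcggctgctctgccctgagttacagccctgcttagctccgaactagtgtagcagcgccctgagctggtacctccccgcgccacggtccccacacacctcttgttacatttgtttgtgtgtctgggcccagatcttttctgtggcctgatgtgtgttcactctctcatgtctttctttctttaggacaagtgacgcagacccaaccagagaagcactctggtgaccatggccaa

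The Fmo2 window held none of these letters and had a GC content of 41.3%, below the median of 52.7% over 32851 promoters of the same length. The Fmo4 window had a GC content of 42.7% and held a CCAAT box at position -239. On the other strand it held a nuclear receptor half-site at -75 and a FOXA core at -19. Positions count from the RefSeq start, and negative ones lie before it. The Fmo5 window had a higher GC content, 56.0%, and held a GC box at -248, a CCAAT box on the other strand at -211 and a FOXA core at -197, which overlapped a TATA box on the other strand at -195. Of all promoters, 13.6% held the TATA box, 13.4% the FOXA core, 37.4% the CCAAT box, 16.3% the nuclear receptor half-site and 35.7% the GC box. The matches describe letters in these windows, and binding of a factor was not measured.

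Read counts were not part of the tables, so the depth is unknown and no interval was set on a single frequency. Frequencies were listed only for genes with enough reads that discriminate the alleles. The median FPKM of the mice was 11.2 to 11.7, and their median B6-allele frequency was 0.509 to 0.512. The lowest mean FPKM in the tables was 2.50, so genes below it were not listed. Of 5 hepatocyte markers 4 were listed, and their summed FPKM was 9567 to 12056 in the B6/MSM mice and 13075 to 13728 in the MSM/B6 mice. Albumin (Alb) was the hepatocyte marker not listed. None of the 3 lung markers and none of the 3 kidney markers, which stand for tissues where Fmo genes are also active, were listed. The summed FPKM was 141 to 174 for all 6 endothelial markers, 77.8 to 107 for 4 of 5 macrophage markers, 71.0 to 97.2 for 3 of 6 stellate cell markers, 10.4 to 16.8 for 1 of 3 adipose markers, 9.51 to 14.6 for 1 of 5 bile duct markers and 122 to 761 for 3 of 4 erythroid markers.

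The Fmo genes covered a wide range of expression. Fmo1 and Fmo5 were both high, with mean FPKM values of 237 ± 11.1 and 236 ± 76.8 (SD, n = 4 mice), which placed them at ranks 431 and 434 of the 8797 genes. Fmo2 followed at 24.1 ± 7.59 and rank 2557, and Fmo4 was lowest at 8.10 ± 0.970 and rank 5425. The order of Fmo1 and Fmo5 was not resolved, since Fmo5 was above Fmo1 in 1 mouse and below it in the other 3. Every Fmo2 value lay below every Fmo1 and Fmo5 value and above every Fmo4 value.

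In all mice, more reads of Fmo1, Fmo2 and Fmo4 came from the MSM allele than from the B6 allele. For Fmo1 the B6-allele frequency was 0.268 and 0.288 in the MSM/B6 mice and 0.296 and 0.315 in the B6/MSM mice. For Fmo4 it was 0.271 and 0.326 in MSM/B6 and 0.292 and 0.341 in B6/MSM. For Fmo2 it was 0.317 and 0.401 in MSM/B6 and 0.337 and 0.455 in B6/MSM. None of these 12 values reached 0.5. Fmo5 stood apart, with 0.562 and 0.5 in the MSM/B6 mice and 0.375 and 0.167 in the B6/MSM mice. All its values in MSM/B6 were at or above 0.5 and both its values in B6/MSM were below it. The count of members below 0.5 in every mouse, 3 of 4, compares with 22.8% of the 3632 genes with a frequency.

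**Figure D1:**
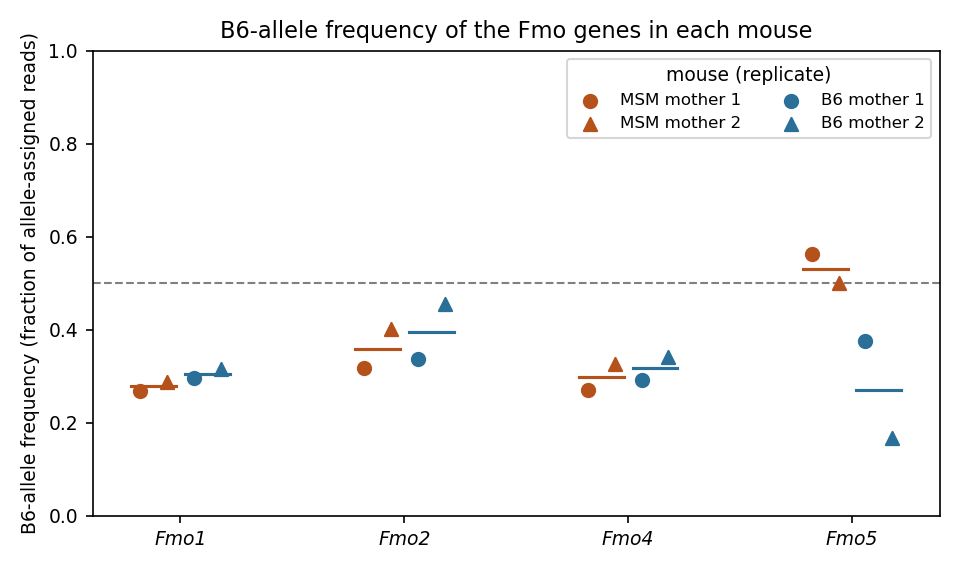
B6-allele frequency (fraction of allele-assigned reads, y axis) of each Fmo gene in each of the 4 mice, with colour for the cross, circles for replicate 1, triangles for replicate 2, short lines for the mean of a cross and a dashed line at equal allele use. Fmo1, Fmo2 and Fmo4 lie between 0.268 and 0.455 in every mouse, while Fmo5 runs from 0.167 to 0.562.

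The mean frequency was tested against equal allele use with limma, after conversion to log2 odds (B6 over MSM), over all 3632 genes with Benjamini-Hochberg adjustment. Fmo1 had a mean frequency of 0.292 ± 0.0195 (SD, n = 4) and a log2 odds of -1.28 (SE 0.06, adjusted p = 0.00357, range 0.00167 to 0.0457 over the alternatives), which is an MSM to B6 ratio of 2.43. Fmo4 had a mean frequency of 0.307 ± 0.0318 and a log2 odds of -1.18 (SE 0.11, adjusted p = 0.00890, range 0.00480 to 0.0661 over the alternatives), a ratio of 2.26. The call of Fmo4 was lost without replicate 1 of B6/MSM (adjusted p = 0.0661) and without its replicate 2 (adjusted p = 0.0605). Fmo2 had a mean frequency of 0.377 ± 0.0628 and a log2 odds of -0.73 (SE 0.18), a ratio of 1.66, and did not pass (adjusted p = 0.0558, range 0.0327 to 0.173 over the alternatives). It passed when the frequency itself was tested (adjusted p = 0.0416) and when each mouse was shifted to a median of equal allele use (adjusted p = 0.0432). Fmo5 had a mean frequency of 0.401 ± 0.175 and a log2 odds of -0.67 (SE 0.32), which did not pass either (adjusted p = 0.190, range 0.0659 to 0.417 over the alternatives). This log2 odds depended on single mice, being -1.07 without replicate 1 of B6/MSM and -0.28 without its replicate 2. The p-values measure the spread between these mice, 2 of each cross.

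Among the 4 members, 2 were called, both toward MSM, beside 36.2% of the 3632 genes called in either direction and 13.6% called toward MSM. The median log2 odds of the members was -0.95, against 0.06 over all genes. In the ranking of mean frequencies, 95 of the 3632 genes (2.62%) lay below Fmo1, 115 (3.17%) below Fmo4, 240 (6.61%) below Fmo2 and 324 (8.92%) below Fmo5. None of the 4 reached the study's limits for biased expression, 0.8 or 0.2 in the mean of the crosses, which 3.19% of genes did.

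Within a mouse, Fmo1 had a lower frequency than Fmo2 in 4 of 4 mice, by 0.0411 to 0.140, and Fmo4 was also lower than Fmo2 in 4 of 4 mice, by 0.0446 to 0.114. Fmo1 and Fmo4 lay closer, with Fmo1 lower in 3 of 4 mice and a mean difference of -0.0156 ± 0.0192 (SD, n = 4). The pairs with Fmo5 had no common direction, and their mean differences were -0.109 for Fmo1 minus Fmo5, -0.0236 for Fmo2 minus Fmo5 and -0.0936 for Fmo4 minus Fmo5. Without 1 mouse they ranged from -0.195 to -0.0474, from -0.127 to 0.0504 and from -0.183 to -0.0275, lowest without replicate 2 of B6/MSM and highest without replicate 1 of MSM/B6 in each pair. In an exact two-sided sign-flip test of the 6 pairs, Fmo1 against Fmo2 and Fmo2 against Fmo4 reached p = 0.125 (adjusted p = 0.375), the smallest that 4 mice allow, and the others had p between 0.375 and 0.875. No pair could pass the threshold of 0.05 in this design.

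When the FPKM of each mouse was split by its B6-allele frequency, with unassigned reads taken to divide like the assigned ones, the MSM share of Fmo1 was 185 and 161 in the MSM/B6 mice and 165 and 162 in the B6/MSM mice. The B6 share was 67.6, 65.1, 69.4 and 74.7 in the same order. Both alleles of Fmo1 thus varied little, by 1.15-fold between the highest and the lowest mouse in each. For Fmo2 the MSM share was 13.4, 21.0, 12.2 and 12.7 and the B6 share 6.23, 14.0, 6.18 and 10.6, with the highest value of both in replicate 2 of MSM/B6. The Fmo2 B6 share spanned 2.27-fold and the MSM share 1.72-fold. For Fmo4 the MSM share was 5.16, 5.57, 6.62 and 5.09 and the B6 share 1.91, 2.69, 2.74 and 2.63. For Fmo5 the MSM share was 103, 172, 111 and 156 and the B6 share 133, 172, 66.3 and 31.1. The Fmo5 B6 share spanned 5.53-fold and the MSM share 1.67-fold, and both B6 values in B6/MSM were below both in MSM/B6. These Fmo5 shares rest on frequencies of 0.5625, 0.5, 0.375 and 0.1667, whose number of allele-assigned reads is unknown. No counting error could therefore be set on these spans.

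**Figure D2:**
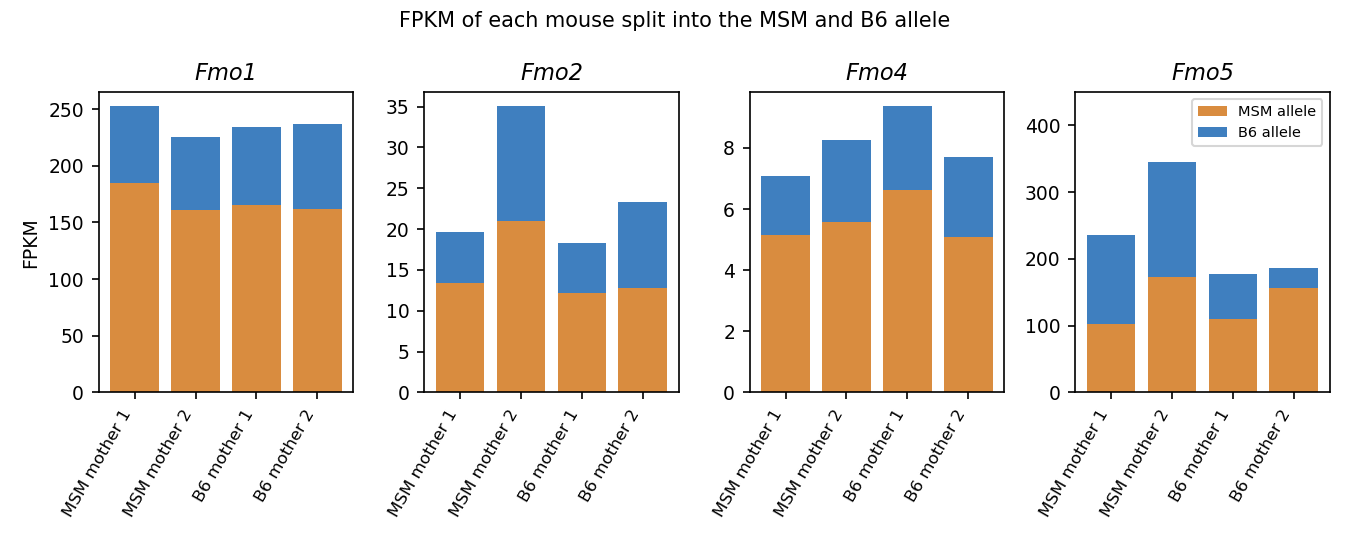
FPKM (y axis, a separate scale for each gene, starting at 0) of the 4 Fmo genes in each mouse, as stacked bars of the MSM and the B6 allele. The MSM part is the larger in every mouse for Fmo1, Fmo2 and Fmo4, and the B6 part of Fmo5 falls between 31.1 and 172.

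Whether allele use depended on the direction of the cross was tested in the same limma model. For Fmo1 the mean frequency was 0.278 in MSM/B6 and 0.306 in B6/MSM, a difference in log2 odds (MSM/B6 minus B6/MSM) of -0.19 (SE 0.11, adjusted p = 0.877), and the values of the crosses did not overlap. For Fmo2 the means were 0.359 and 0.396 (log2 odds difference -0.22, SE 0.35, adjusted p = 0.95), and for Fmo4 they were 0.298 and 0.317 (-0.13, SE 0.21, adjusted p = 0.956), with overlapping crosses in both. For Fmo5 the means were 0.531 and 0.271, the crosses did not overlap, and the log2 odds difference was 1.71 (SE 0.64, unadjusted p = 0.0665, adjusted p = 0.873). Without replicate 2 of B6/MSM the Fmo5 difference was 0.92, and without other single mice it was 1.53 to 2.50. None of the 4 members was called by limma, where 0.0826% of genes were, and none had an unadjusted p under 0.05, which 190 genes had. Crosses without overlap, found for 2 of 4 members, were found for 34.3% of all genes. An exact permutation test of 2 mice against 2 cannot give a p below 0.333.

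The spread between mice of the same cross set how far these differences could be read. The pooled SD of the frequency within crosses was 0.0141 for Fmo1, 0.0367 for Fmo4, 0.0723 for Fmo2 and 0.109 for Fmo5, against a median of 0.0253 over all genes. Fmo5 lies in a region where few genes had a frequency, 7 of 241 listed genes on chromosome 3 below 100 Mb. Over 92 genes with a frequency below 100 Mb, or below 10 Mb on chromosomes 16 to 19, the median SD within crosses was 0.246, against 0.0244 over the 3383 genes beyond these limits. In mean FPKM 95.1% of genes lay below Fmo5, but FPKM does not give the number of allele-assigned reads. The Fmo5 frequencies, 0.5625, 0.5, 0.375 and 0.1667, are all ratios of small whole numbers. How many allele-assigned reads lay behind them is unknown, and the part of that number in the spread was not tested. The part of the genomic position in the Fmo5 frequency was not tested.

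Total expression was compared between the crosses with limma on log2(FPKM + 1). Fmo1 had an FPKM of 253 and 226 in MSM/B6 and 234 and 237 in B6/MSM, which overlapped, and the log2 difference (MSM/B6 minus B6/MSM) was 0.02 (SE 0.15, adjusted p = 0.978). Its values varied by a coefficient of variation of 4.69% over the 4 mice. The sign of this small difference turned when the mice were scaled to the same median (-0.01) or quantile-normalized (-0.10). Fmo2 had 19.7 and 35.0 in MSM/B6 and 18.4 and 23.4 in B6/MSM, a log2 difference of 0.33 (SE 0.28, adjusted p = 0.70) that became -0.07 without replicate 2 of MSM/B6. Fmo4 had 7.07 and 8.26 against 9.36 and 7.71, a log2 difference of -0.14 (SE 0.14, adjusted p = 0.744). Fmo5 had 236 and 345 in MSM/B6 against 177 and 187 in B6/MSM, and did not overlap between the crosses. The log2 difference of Fmo5 was 0.65 (SE 0.22), with an unadjusted p of 0.0261 that did not pass over all genes (limma, adjusted p = 0.512, range 0.162 to 1.0 over the alternatives). It was 0.37 without replicate 2 of MSM/B6, and 0.61 to 0.92 without other single mice.

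Thus 0 of 4 members were called in expression by limma, beside 0.0455% of the 8797 genes, and 1 of 4, Fmo5, had an unadjusted p under 0.05, as 780 genes did. FPKM values did not overlap between the crosses for 1 of 4 members and for 42.4% of all genes. The median log2 difference was 0.17 over the members and 0.02 over all genes. Some marker sums did not overlap between the crosses either, although no listed marker gene was called in expression (lowest limma adjusted p = 0.105, Hbb-bs). Like Fmo5, the listed hepatocyte markers were higher in both MSM/B6 mice, as given above, although Cps1, the urea cycle gene among them, overlapped (1522 and 1855 against 1731 and 1571). Stellate cell markers (97.2 and 86.5 against 71.0 and 77.6) and the adipose marker (16.8 and 16.2 against 11.5 and 10.4) were higher in MSM/B6 too. The stellate sum was mostly Dcn (88.9 and 73.7 against 58.7 and 67.5), while the listed Reln and Col3a1 overlapped. Macrophage markers (85.4 and 77.8 against 104 and 107) and erythroid markers (302 and 122 against 761 and 444) were lower in MSM/B6. Among the erythroid markers, Hba-a1 overlapped (124 and 36.0 against 136 and 23.6). The endothelial and bile duct sums overlapped. Among the endothelial markers, Pecam1, Stab2 and Kdr were lower in both MSM/B6 mice, while Lyve1, Clec4g and Fcgr2b overlapped. The part of these sums in the Fmo5 difference was not tested. In these bulk samples, fewer cells of a type and less RNA per cell cannot be told apart.

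The chromosome 1 genes were then set beside their neighbours. Within 2 Mb of a start of Fmo4, Fmo1 or Fmo2, 17 other listed genes were described, and all had a frequency. Their mean frequencies ran from 0.379 (Nme7) to 0.827 (Cenpl) with a median of 0.511. None lay below the mean of Fmo2, 0.377, but Nme7 was close to it and spread widely (SD 0.122). In log2 odds Nme7 (-0.75, SE 0.35) was slightly lower than Fmo2 (-0.73, SE 0.18). On the Fmo4 side, Prrc2c started 73.4 kb away and had a frequency of 0.501 ± 0.0165 (SD, n = 4), and Mettl13 started 265 kb away and had 0.480 ± 0.0373. On the Fmo2 side, Scyl3 started 1030.4 kb away and had 0.511 ± 0.0199. F5, which encodes coagulation factor V, started 1253.1 kb away and had 0.577 ± 0.00878 (log2 odds 0.45, SE 0.05, limma adjusted p = 0.0115). Prrc2c, Mettl13 and Scyl3 were not called (limma adjusted p = 0.966, 0.464 and 0.404).

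Over all 3632 genes 1316 (36.2%) were called, 494 of them toward MSM, so most calls over all genes were toward B6. Of the 17 neighbours 8 were called, and 7 of them were called toward B6, the opposite direction to Fmo1 and Fmo4. Besides F5 these were Serpinc1 (antithrombin, mean frequency 0.538), Gas5 (0.652), Cenpl (0.827), Gm16548 (0.764), Slc19a2 (a thiamine transporter, 0.566) and Ccdc181 (0.603). Gm16548 starts beside F5 on the opposite strand. Prdx6, which encodes a peroxiredoxin, was the neighbour called toward MSM, at 0.466. With each mouse shifted to a median of equal allele use, Serpinc1 was lost (limma adjusted p = 0.0721) and the other called neighbours still passed. The call of Gm16548 held without any single mouse (highest adjusted p = 0.0409), the call of Cenpl was lost without either mouse of B6/MSM (adjusted p = 0.0540 and 0.0516), and the other 6 were lost without any one of the 4 mice (adjusted p 0.0509 to 0.170). Around Fmo5, 34 other listed genes that start within 2 Mb were examined, and none of them had a frequency. The nearest on each side were Chd1l and Acp6 before it and Pde4dip and Sec22b after it.

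**Figure D3:**
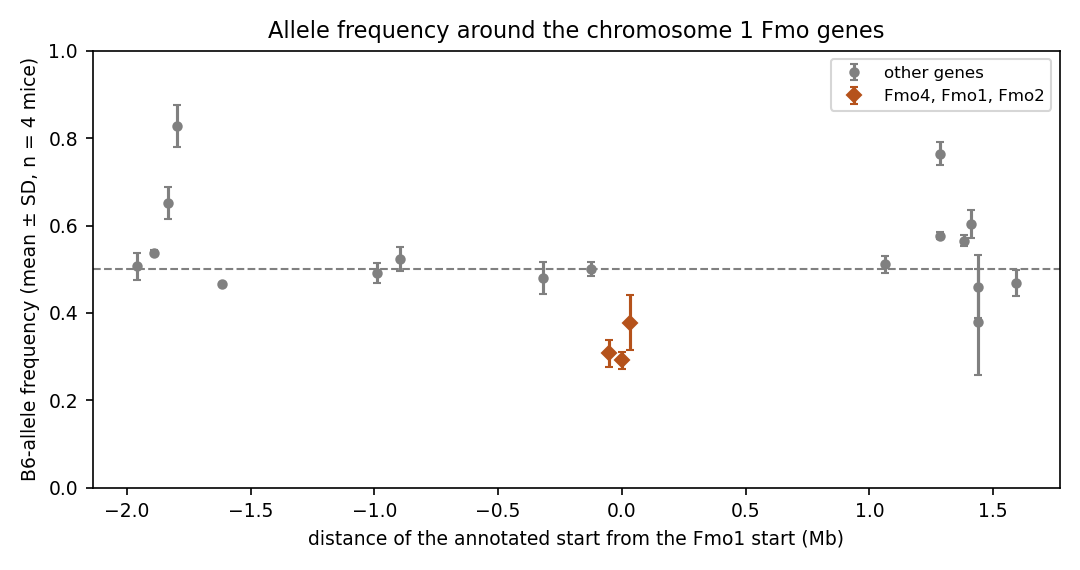
Mean B6-allele frequency (y axis, bars are SD over 4 mice) of Fmo4, Fmo1 and Fmo2 (diamonds, left to right) and of the 17 described neighbours (grey circles) against the distance of their annotated starts from the Fmo1 start in Mb. The Fmo means lie at 0.292 to 0.377, and the neighbours at 0.379 to 0.827, with Prrc2c at 0.501 nearest to Fmo4. The lowest neighbour, Nme7, has an SD of 0.122, which reaches across the Fmo2 mean.

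Genes that work beside the Fmo enzymes were taken from 4 lists of 47 symbols, of which 42 were listed, 3 are newer names of listed genes and 17 had a frequency. In the imbalance test 3 of the 17 were called toward B6 and 4 toward MSM, 7 of 17 beside the 36.2% of all genes. None of the 42 was called in expression between the crosses, and none of the 17 in frequency between the crosses. At an unadjusted p under 0.05, limma gave 3 of the 42 in expression, beside 780 of 8797 genes. In frequency it gave 0 of the 17, beside 190 of 3632 genes.

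Of 6 genes of cytochrome b5 and P450 electron transfer 5 were listed and 3 had a frequency, and none of the 3 was called. Por, the reductase that serves the cytochromes P450, had an FPKM of 418 and 619 in MSM/B6 and 385 and 460 in B6/MSM, and a frequency of 0.516, 0.521, 0.517 and 0.510 in the same order. All 4 frequencies lay between 0.510 and 0.521. Cyb5r3, a cytochrome b5 reductase, had a mean FPKM of 250.4 ± 20.01 (SD, n = 4) and no frequency. Cyb5b, the cytochrome b5 of the mitochondrial outer membrane, had a mean frequency of 0.499 and an FPKM of 115 ± 9.13.

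Of 12 genes that supply NADPH, the cofactor of the Fmo enzymes, 11 were listed, 5 had a frequency and 2 were called, both toward MSM. Nnt, the mitochondrial transhydrogenase, had frequencies of 0.240 and 0.239 in MSM/B6 and 0.212 and 0.253 in B6/MSM, all below the lowest value of Fmo1 (log2 odds -1.70, SE 0.08, limma adjusted p = 0.00364). Nadk, the kinase that makes NADP from NAD, had 0.445, 0.447, 0.425 and 0.421 (log2 odds -0.38, SE 0.04, limma adjusted p = 0.0116). Aldh1l1, the folate enzyme with the highest FPKM of this list (846 ± 75.8, SD, n = 4), was not called (limma adjusted p = 0.274). Its frequencies spread widely, with 0.435 and 0.5 in MSM/B6 and 0.5 and 0.35 in B6/MSM (mean 0.446, SD 0.0711). How many allele-assigned reads lay behind these values is unknown, and the part of that number in the spread was not tested.

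The list of other enzymes that oxidize or reduce amines and sulfur compounds held 16 symbols, of which 3 are newer names of listed genes (Marc1, Marc2 and Sqrdl). All its other 13 symbols were listed, 6 had a frequency and 4 were called. Suox, sulfite oxidase, was called toward B6 with frequencies of 0.686, 0.682, 0.709 and 0.684 (log2 odds 1.16, SE 0.05, limma adjusted p = 0.00384), and Sqrdl, sulfide quinone oxidoreductase, was called toward B6 with a mean of 0.543 (adjusted p = 0.0421). Pyroxd2, an oxidoreductase, was called toward MSM with 0.229, 0.203, 0.259 and 0.206 (log2 odds -1.80, SE 0.10, limma adjusted p = 0.00481). Marc1, which reduces N-hydroxylated compounds and so reverses a kind of reaction that Fmo enzymes carry out, was called toward MSM with a mean of 0.429 (adjusted p = 0.0235).

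All 13 transcription factors described from the fourth list were listed, and 3 had a frequency. Hnf4a, a nuclear receptor of hepatocytes, was called toward B6 with a mean of 0.542 (limma adjusted p = 0.0300), and the others were not called. With each mouse shifted to a median of equal allele use, Hnf4a (limma adjusted p = 0.0555) and Sqrdl (limma adjusted p = 0.0727) were lost. The remaining called list genes, Nnt, Nadk, Suox, Pyroxd2 and Marc1, passed there too. Without each single mouse in turn, Nnt, Suox and Pyroxd2 stayed called (highest adjusted p = 0.0434), while Nadk, Sqrdl, Marc1 and Hnf4a were lost whichever of the 4 mice was left out (adjusted p 0.0630 to 0.158).

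**Figure D4:**
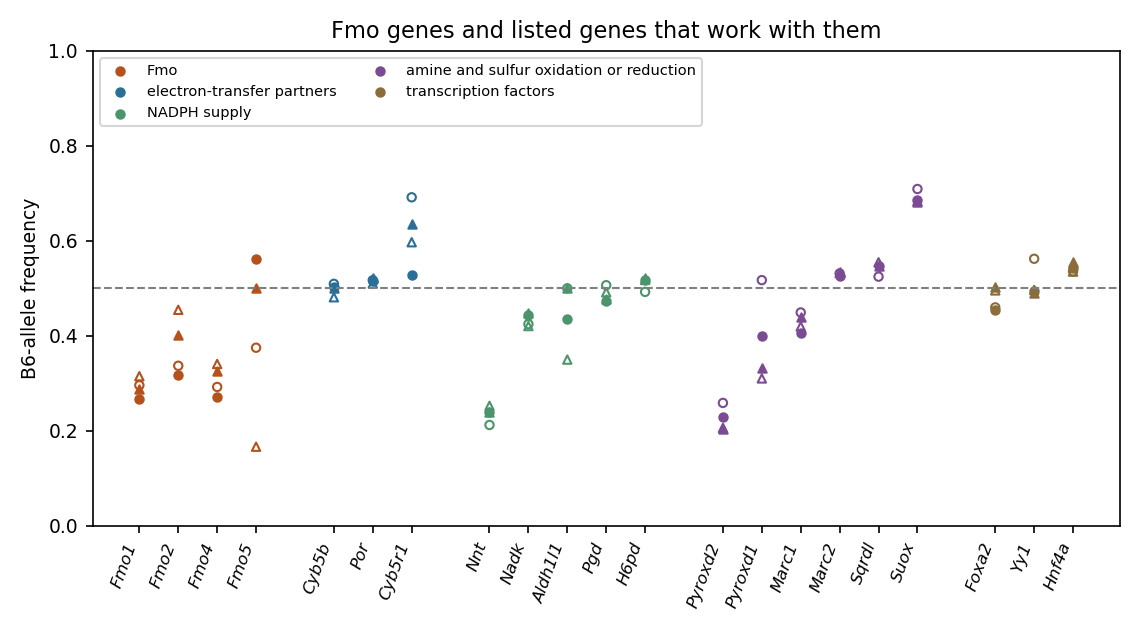
B6-allele frequency (y axis) of the 4 Fmo genes and of the 17 genes with a frequency from the 4 lists, coloured by list, with filled symbols for MSM/B6, open symbols for B6/MSM, circles for replicate 1, triangles for replicate 2 and a dashed line at equal allele use. Nnt and Pyroxd2 lie lower than Fmo1 in mean, Suox lies highest, and Por lies at 0.510 to 0.521 in all mice.

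The genes most like each member were named by the largest absolute difference over the 4 mice. In B6-allele frequency, Fmo1 was most like Kdsr (largest difference 0.0266) and Urad (0.0274), and Fmo4 most like Kdsr (0.0302) and Cwf19l1 (0.0319). Fmo2 was most like Ogfod3 (0.0311) and Slc16a12 (0.0338), and Fmo5 most like Pop7 (0.0658) and 9130409I23Rik (0.0747). In log2(FPKM + 1) centred on the mean of each gene, the closest profiles were Rabep2 (0.0033) and Cyp4f13 (0.0113) for Fmo1, Tnfrsf1b (0.0311) and Slc7a2 (0.0694) for Fmo2, Dock1 (0.0118) and Ptk2b (0.0152) for Fmo4, and Cdip1 (0.0628) and Gpt2 (0.0649) for Fmo5. No member was the nearest of another in either measure. With 4 mice these profiles are descriptions and carry no test.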

How the data were processed

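Liver mRNA of 4 mice was measured. Per the labels and the study's methods, adapters were removed by Trim Galore and reads were placed by TopHat2 on an mm10 genome with SNP bases masked, each at a single place and with the strand used. SNPsplit then assigned reads to alleles, and Cuffdiff counted them. Frequencies were listed for genes with more than 10 discriminating reads. Versions are not given in the sources used here. The authors deposited FPKM values and the B6-allele frequency, a fraction, per gene. Masking reduces, and may not remove, mapping in favour of the reference allele, and reads without a SNP carry no allele.

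Mice were grouped by the cross in the labels. Allelic imbalance and the cross difference came from limma 3.58.1 (R 4.3.3) on log2 odds of frequencies limited to 0.01 to 0.99. Expression was tested with limma, with a variance trend, on log2(FPKM + 1) for genes of mean FPKM of at least 1, and fold changes on this scale understate low genes. Two-sided p-values were adjusted by Benjamini and Hochberg over all genes tested, with a threshold of 0.05. Member pairs were compared by an exact sign-flip permutation test. Positions and reading frames came from GENCODE M21 (mm10), promoters from RefSeq, and alignments were made with Biopython 1.88 (match 2, mismatch -1, gap opening -5, gap extension -1). Tables were handled in Python 3.11.15 with pandas 2.3.3, numpy 2.4.6 and scipy 1.17.1, and plots drawn with matplotlib 3.10.9. On simulated data, 185 of 200 changed genes were recovered for imbalance (log2 odds of 2), 193 of 200 for the crosses (log2 odds difference of 6) and 180 of 200 for expression (log2 difference of 2). False calls were 7, 6 and 8 in the same order. These simulated effects are larger than those of any member, so recovery of effects of the members' size was not measured.

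The members and lists were chosen with earlier results of these data known. Named were the 4 members, list genes called in a test or else up to 4 of highest FPKM per list, called neighbours within 2 Mb and the 2 nearest on each side, and the 2 most similar genes per member and measure. 4 genes of the neighbourhoods and lists are not reported here. Other scales, limits, filters, pseudocounts, normalizations, thresholds, a replicate block and leaving out each mouse were tried as alternatives. The main models hold no replicate block, since no source says that equal numbers share a litter, batch or day.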

Additional observations from a re-analysis of the deposited data

How the results depend on the processing

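With 1 mouse left out, a cross is represented by a lone mouse that is assumed to vary like the others, and the members called for imbalance ranged from 1 to 2, against 2 with all mice, and the called genes from 181 to 514, against 1316. The genes called between crosses then ranged from 0 to 6 in frequency, against 3, and from 13 to 21 in expression, against 4. With the replicate number as a block, 3 members were called for imbalance, with Fmo2 at an adjusted p of 0.0327 (limma), and 775 genes in all, while 285 genes were called in expression. The numbers do not pair the mice by any source, and same-numbered mice correlated by 0.00375 in log2(FPKM + 1) and 0.146 in log2 odds. With limits of 0.7 and 0.3 in place of 0.8 and 0.2, 1 member, Fmo1, was past them. The number of member pairs in the same order in every mouse was 2, and 2 to 5 without 1 mouse, and Fmo2 minus Fmo5 ranged from -0.127 to 0.0504 in frequency. Directions that turned belonged to differences that were not called. These were Fmo1 expression (-0.0091 after median scaling, -0.10 after quantile normalization and -0.061 to 0.099 without 1 mouse), Fmo2 expression (-0.073 to 0.73 without 1 mouse) and the cross difference in log2 odds of Fmo2 (-0.58 to 0.13) and Fmo4 (-0.32 to 0.065). Fmo4 has no expression value under a minimum mean FPKM of 10. Depth per allele is unknown, so the counting error of a frequency could not be given.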
